A study of Mus musculus with 18 samples.

Results

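The genes described are 7 cytokine genes of B cells, Lta, Ltb, Tnf, Ebi3, Il12a, Il10 and Tgfb1, named by symbol and found by their Ensembl IDs among the 35275 gene IDs of the expression table. All 7 were present. Each had a mean of at least 1 FPKM (fragments per kilobase of gene, scaled to a library of 1 M fragments) over the 18 libraries, which 11646 genes reached. The RNA came from pan B cells isolated from the spleens of C57BL/6 mice. Cells were held for 1 h with 1000 ng/ml of mBaffR-mFc or of a control antibody, and were then given BAFF 60mer, BAFF 3mer or no BAFF for 4 h. Both forms of BAFF were used at 100 ng/ml. The groups are called BRFc_60mer and Ab_60mer (BAFF 60mer), BRFc_3mer and Ab_3mer (BAFF 3mer), and BRFc and Ab (no BAFF), where BRFc stands for the mBaffR-mFc pretreatment and Ab for the control antibody. Each group has 3 libraries. The series describes mBaffR-mFc as covering the part of BAFF that docks on its receptor BR3, and the comparisons ask how the transcripts of B cells respond to either form of BAFF with that part free or covered. The control groups therefore also carried a pretreatment, and no group was left without one.

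BAFF is a cytokine of the TNF family that B cells need to survive. It circulates as a trimer and can assemble into a larger particle, and it signals through BR3 mainly to the noncanonical arm of NF-kB. B cells are also sources of cytokines. Lymphotoxin alpha and lymphotoxin beta are TNF family ligands made by B cells that organise spleen and lymph node architecture through the lymphotoxin beta receptor. EBI3 and the p35 chain encoded by Il12a together form IL-35, and p35 with the p40 chain of Il12b forms IL-12. IL-10 and TGF-beta 1 are cytokines of regulatory B cells, and TNF is the inflammatory ligand encoded between the lymphotoxin genes.

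BAFF 60mer went with more transcript of Il12a and Lta, and of Ebi3 in the comparison with Ab only. Il12a was higher after either pretreatment and against either BAFF 3mer or no BAFF, by 1.34 to 1.47 times in mean FPKM. Lta was higher against no BAFF after either pretreatment, and against BAFF 3mer after control antibody. Ebi3 passed only for Ab_60mer over Ab, and the Ab libraries also lay below every library with BAFF 3mer. Ltb, Tnf, Il10 and Tgfb1 passed in no comparison of the fit reported. No member passed between BAFF 3mer and no BAFF or between mBaffR-mFc and control antibody. Summed transcripts of connective tissue exceeded 1 FPKM in every library with BAFF 60mer and in none without BAFF. With a term for them in the fit, only the call of Il12a for Ab_60mer over Ab_3mer was kept. Each call of Lta was also lost when certain single libraries were left out.

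The bases before the RefSeq start site of the 3 genes that passed are shown first, since these genes rose in overlapping comparisons and BAFF signals to NF-kB. Each line has 250 bases, 5′ to 3′ on the strand of the gene, from the RefSeq promoter table of GRCm38.p6. Capitals mark the NF-kB site consensus (10 letters, searched on both strands).
Il12a, chr3:68690394-68690643, plus strand: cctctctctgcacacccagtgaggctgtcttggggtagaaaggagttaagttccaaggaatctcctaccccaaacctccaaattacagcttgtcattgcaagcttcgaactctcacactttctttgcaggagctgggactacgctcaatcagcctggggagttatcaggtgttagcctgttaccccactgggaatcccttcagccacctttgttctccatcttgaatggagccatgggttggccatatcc
Lta, chr17:35205352-35205601, minus strand: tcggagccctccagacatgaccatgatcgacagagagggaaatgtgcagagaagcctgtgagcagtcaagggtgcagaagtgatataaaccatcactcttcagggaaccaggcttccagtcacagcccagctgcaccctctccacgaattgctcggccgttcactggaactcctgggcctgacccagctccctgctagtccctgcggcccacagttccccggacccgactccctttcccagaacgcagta
Ebi3, chr17:55952373-55952622, plus strand: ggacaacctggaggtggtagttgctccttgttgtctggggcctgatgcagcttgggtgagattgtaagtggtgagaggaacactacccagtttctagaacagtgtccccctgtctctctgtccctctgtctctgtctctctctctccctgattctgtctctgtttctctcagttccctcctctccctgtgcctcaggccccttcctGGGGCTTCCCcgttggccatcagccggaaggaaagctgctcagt
The promoter table held 7 such windows for 6 of the 7 genes, with a second start for Il12a. Il10 was not matched in it. The consensus was found at 1 position in the window of Ebi3, where it reads on both strands and begins 44 bases before the start site. The window of Lta and both windows of Il12a did not hold these letters. Of the other members, Ltb held a match on the minus strand 87 bases before its start, Tgfb1 held one 140 bases before its start, and Tnf held none. Over all 32851 promoters of the table, 7.25% held the consensus. A match here is a description of the letters and says nothing of a factor being bound.

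The libraries had 12.2 to 25.4 M fragments. Markers of B cells were abundant, with mean levels over the 18 libraries of 180.1 FPKM for Ms4a1 (the CD20 gene), 850.9 FPKM for Cd79a (a chain of the B cell receptor complex) and 194.1 FPKM for Pax5 (a transcription factor of B cell identity). Summed T cell markers lay between 2.93 and 4.42 FPKM, NK cell markers between 110.1 and 137.1 FPKM and monocyte and macrophage markers between 143.0 and 169.3 FPKM, so the preparations were not free of other cells. In bulk RNA a change in the share of a cell type and a change in RNA per cell cannot be told apart. A set of libraries stands apart in transcripts of connective tissue. The summed level of Col1a1, Col1a2, Col3a1, Sparc, Dcn and Bgn was 8.14 to 12.9 FPKM in all 3 BRFc_60mer libraries, all 3 Ab_60mer libraries and Ab_3mer replicates 1 and 2, and at most 0.131 FPKM in the other libraries. Replicate numbers are the order of deposition, and the labels do not say whether replicates were separate animals, so the p-values speak of the spread among these libraries and no more.

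Il12a, which encodes the p35 chain shared by IL-12 and IL-35, lies at chr3:68690644-68698547 on the plus strand (GENCODE M21, GRCm38). Its level was 19.0, 19.7 and 19.8 FPKM in the BRFc_60mer libraries and 20.3, 21.6 and 18.3 FPKM in the Ab_60mer libraries. With BAFF 3mer it was 12.7, 14.3 and 12.9 FPKM in BRFc_3mer and 15.1, 14.5 and 15.3 FPKM in Ab_3mer. Without BAFF it was 16.2, 14.1 and 12.9 FPKM in BRFc and 16.1, 14.8 and 14.1 FPKM in Ab. The 6 libraries with BAFF 60mer were all above the other 12, with no overlap. The share of tested genes with this whole pattern was not computed, and shares are given group against group. Non-overlap in the same direction held for 7.13% of tested genes in BRFc_60mer over BRFc, 13.5% in Ab_60mer over Ab, 10.1% in BRFc_60mer over BRFc_3mer and 11.8% in Ab_60mer over Ab_3mer. The Il12a values rest on 285 to 547 fragments per library, the counts being recovered from the FPKM steps.

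The difference of Il12a, taken on log2(FPKM + 1) as all differences here, was 0.42 ± 0.077 for BRFc_60mer over BRFc (SE; limma adjusted p = 0.00414) and 0.40 ± 0.077 for Ab_60mer over Ab (adjusted p = 0.00358). Against BAFF 3mer it was 0.52 ± 0.077 after mBaffR-mFc (adjusted p = 0.000757) and 0.40 ± 0.077 after control antibody (adjusted p = 0.00627). As ratios of mean FPKM these are 1.36, 1.34, 1.47 and 1.34. BAFF 3mer gave no such difference in the test. It stood at -0.10 ± 0.077 for BRFc_3mer over BRFc (adjusted p = 0.999; 95% interval -0.26 to 0.06) and at -0.0017 ± 0.077 for Ab_3mer over Ab (adjusted p = 0.998; interval -0.16 to 0.16). The pretreatment did not pass either. BRFc_60mer minus Ab_60mer was -0.04 ± 0.077 (adjusted p = 0.993; interval -0.20 to 0.13), and BRFc minus Ab was -0.06 ± 0.077 (adjusted p = 0.935). The largest was BRFc_3mer minus Ab_3mer, at -0.16 ± 0.077 (unadjusted p = 0.0515, adjusted p = 0.998; interval -0.32 to 0.001). The interaction of BAFF 60mer with pretreatment was 0.03 ± 0.108 (adjusted p = 0.986). Each of the 4 comparisons with BAFF 60mer kept its call for Il12a whichever library was left out, with adjusted p between 0.0011 and 0.0353.

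The split in connective tissue transcripts runs along BAFF 60mer, apart from Ab_3mer, where it falls within the group. There Il12a had 15.1 and 14.5 FPKM in the carrying libraries and 15.3 FPKM in the other one. With carriage as a term in the fit, Il12a kept its call for Ab_60mer over Ab_3mer (0.41 ± 0.088, adjusted p = 0.0203). It lost it for Ab_60mer over Ab (0.44 ± 0.142, adjusted p = 0.349), BRFc_60mer over BRFc (0.47 ± 0.142, adjusted p = 0.482) and BRFc_60mer over BRFc_3mer (0.57 ± 0.142, adjusted p = 0.197). In those comparisons the carriage term is estimated from the 3 Ab_3mer libraries alone, which widens the standard error. For Ab_60mer over Ab_3mer the term only sets aside Ab_3mer replicate 3, the library of its group without carriage. That difference is the same as with this library left out and is no separate check.

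Lta encodes lymphotoxin alpha, secreted as a homotrimer or held at the membrane with lymphotoxin beta. It lies at chr17:35203165-35205351 on the minus strand. It had 7.74, 5.61 and 5.56 FPKM in BRFc_60mer and 8.51, 7.09 and 6.98 FPKM in Ab_60mer. The BAFF 3mer groups had 5.50, 5.10 and 5.38 FPKM (BRFc_3mer) and 5.15, 5.64 and 4.83 FPKM (Ab_3mer). The groups without BAFF had 4.09, 4.81 and 4.52 FPKM (BRFc) and 6.04, 5.25 and 5.40 FPKM (Ab). All 3 Ab_60mer libraries were above every library of the other groups except BRFc_60mer replicate 1. Group against group, such non-overlap held for 13.5% of tested genes in Ab_60mer over Ab and 11.8% in Ab_60mer over Ab_3mer. The BRFc libraries were below all the Ab libraries (as for 5.29% of tested genes). The values rest on 105 to 172 fragments.

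Lta rose by 0.40 ± 0.105 in BRFc_60mer over BRFc (limma adjusted p = 0.0341; ratio of mean FPKM 1.41) and by 0.37 ± 0.105 in Ab_60mer over Ab (adjusted p = 0.0266; ratio 1.35). It also rose by 0.45 ± 0.105 in Ab_60mer over Ab_3mer (adjusted p = 0.0187; ratio 1.44). BRFc_60mer minus BRFc_3mer was 0.19 ± 0.105 and did not pass (adjusted p = 0.334), although the libraries of these groups do not overlap (10.1% of tested genes in this direction). The difference between pretreatments did not pass with BAFF 60mer (BRFc_60mer minus Ab_60mer -0.23 ± 0.105, adjusted p = 0.993) or without BAFF (BRFc minus Ab -0.26 ± 0.105, adjusted p = 0.829). The interaction of BAFF 60mer with pretreatment was 0.03 ± 0.148 (adjusted p = 0.986).

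The calls of Lta are close to the threshold, and several rest on single libraries. Ab_60mer over Ab lost its call when Ab replicate 2 (adjusted p = 0.0869), Ab replicate 3 (0.0691) or Ab_60mer replicate 1 (0.127) was left out. Ab_60mer over Ab_3mer lost it when Ab_3mer replicate 1 (0.0615), Ab_3mer replicate 3 (0.0961) or Ab_60mer replicate 1 (0.102) was. For BRFc_60mer over BRFc the call was lost without BRFc replicates 1 (0.0905), 2 (0.0583) or 3 (0.0955), or without BRFc_60mer replicate 1 (0.147), the library with the highest Lta in its group. With a library left out, the difference stayed between 0.27 and 0.50 in these comparisons. With no filter on low genes the adjusted p was 0.0619 for Ab_60mer over Ab, 0.0535 for Ab_60mer over Ab_3mer and 0.0847 for BRFc_60mer over BRFc. With only the groups compared in the fit it was 0.0552 for Ab_60mer over Ab_3mer and 0.178 for BRFc_60mer over BRFc. With voom on recovered fragments it was 0.0568 for Ab_60mer over Ab and 0.0679 for BRFc_60mer over BRFc. In Ab_3mer, Lta had 5.15 and 5.64 FPKM in the libraries carrying connective tissue transcripts and 4.83 FPKM in the other, and no Lta call was kept with carriage as a term (adjusted p = 0.096 to 0.999).

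Ebi3 encodes the beta chain of IL-35 and IL-27 and lies at chr17:55952640-55957022 on the plus strand. Its level was 3.03, 2.75 and 3.03 FPKM in BRFc_60mer and 3.42, 3.17 and 2.85 FPKM in Ab_60mer. It was 2.76, 2.83 and 2.68 FPKM in BRFc_3mer and 2.96, 2.75 and 2.92 FPKM in Ab_3mer. Without BAFF it was 2.16, 2.51 and 3.40 FPKM in BRFc and 1.83, 2.19 and 1.47 FPKM in Ab. Every library with BAFF lay above every Ab library, while the BRFc libraries spread across the range of the others. Group against group, such non-overlap held for 13.5% of tested genes in Ab_60mer over Ab and 4.01% in Ab_3mer over Ab. The share of genes with the whole pattern was not computed. The Ab libraries hold 39, 56 and 27 Ebi3 fragments, and the exact Poisson 95% interval of the lowest covers 0.971 to 2.14 FPKM (counting error only).

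**Figure D1:**
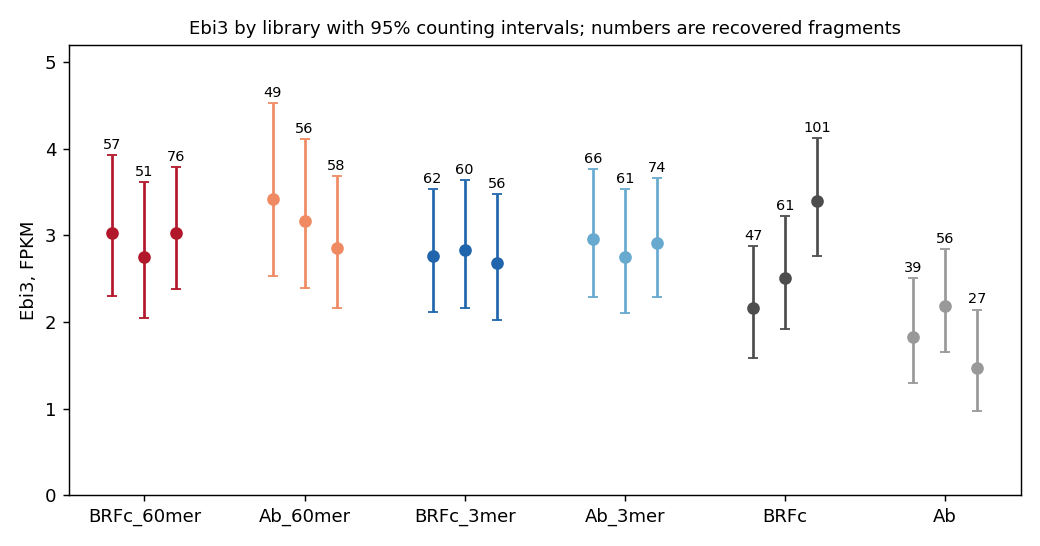
Ebi3 level in FPKM (y axis) of each of the 18 libraries, grouped by treatment (x axis). Points are libraries, bars are exact Poisson 95% intervals of the recovered fragments, whose number is printed above each bar, and the Ab libraries at 1.83, 2.19 and 1.47 FPKM are below every library given BAFF.

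Ebi3 rose by 0.56 ± 0.115 in Ab_60mer over Ab (limma adjusted p = 0.00523; 95% interval 0.31 to 0.80). The ratio of mean FPKM was 1.72, since the added 1 FPKM shortens the log difference of a gene this low. It kept this call whichever library was left out (adjusted p = 0.0053 to 0.0299) and lost it with carriage of connective tissue transcripts as a term (0.58 ± 0.214, adjusted p = 0.411). In Ab_3mer the carrying libraries had 2.96 and 2.75 FPKM and the other had 2.92 FPKM. Ab_3mer minus Ab was nearly as large at 0.46 ± 0.115, with an unadjusted p of 0.000948, but did not pass over all genes (adjusted p = 0.751). Ab_60mer minus Ab_3mer was 0.10 ± 0.115 (adjusted p = 0.682; interval -0.15 to 0.34). After mBaffR-mFc nothing passed, with 0.11 ± 0.115 for BRFc_60mer over BRFc (adjusted p = 0.676) and 0.07 ± 0.115 for BRFc_60mer over BRFc_3mer (adjusted p = 0.805). The difference between pretreatments in the effect of BAFF 60mer was -0.45 ± 0.162, which did not pass (unadjusted p = 0.0131, adjusted p = 0.896). BRFc minus Ab, the comparison without BAFF, was 0.38 ± 0.115 (adjusted p = 0.829). The antisense gene Gm16712 overlaps Ebi3 with a mean of 1.06 FPKM, and the sources used here do not say whether counting used the strand, so reads of this pair may be shared. Its own difference for Ab_60mer over Ab was -0.03 ± 0.147.

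**Figure D2:**
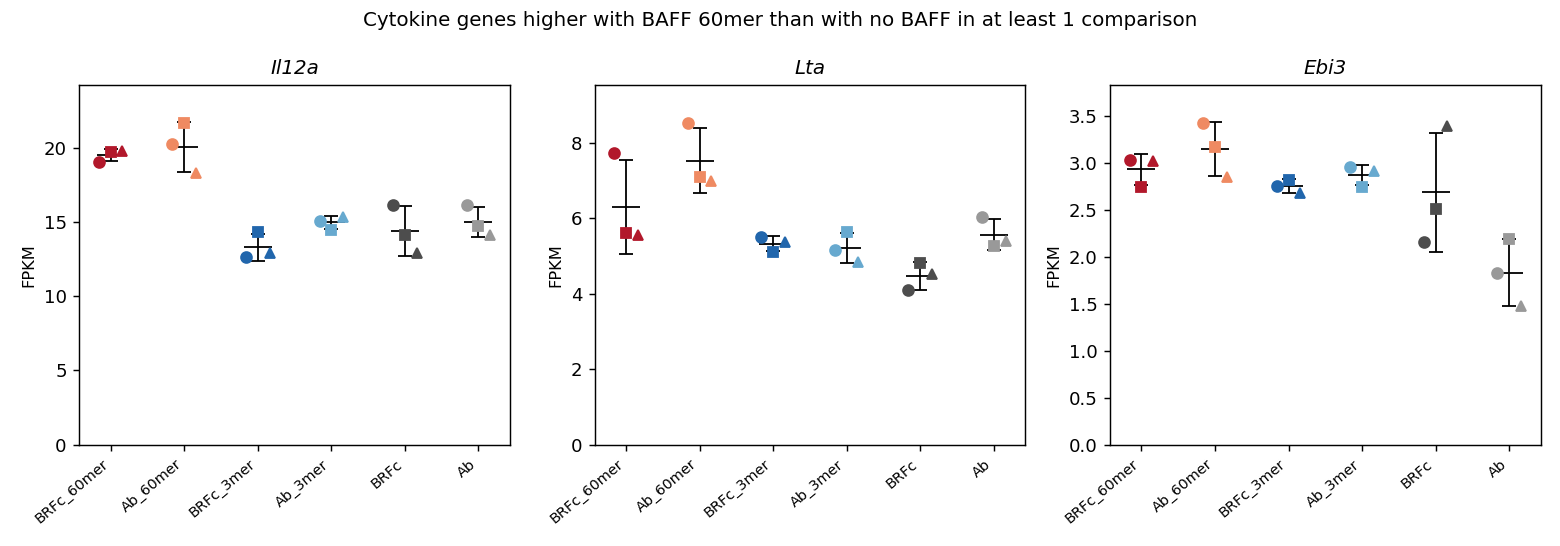
Levels in FPKM (y axes, each starting at 0) of Il12a, Lta and Ebi3 in the 6 groups (x axes). Symbols are libraries, with circle, square and triangle for replicates 1, 2 and 3, and lines show the mean and SD of 3. Il12a with BAFF 60mer is above all other libraries, Lta is highest in Ab_60mer, and Ebi3 is lowest in Ab.

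Counted over members, 3 of 7 passed as higher for Ab_60mer over Ab (Il12a, Lta and Ebi3), where 14% of all tested genes passed in either direction and 5.04% as higher. For Ab_60mer over Ab_3mer 2 of 7 passed (Il12a and Lta), against 4.81% of all genes, of which 1.80% were higher. For BRFc_60mer over BRFc 2 of 7 passed (Il12a and Lta), against 4.83%, with 1.46% higher. For BRFc_60mer over BRFc_3mer 1 of 7 passed (Il12a), against 5.16%, with 2.05% higher. No member was lower in any of them. In the F test over the 6 groups 3 of 7 passed, with adjusted p = 0.000347 for Il12a, 0.00935 for Lta and 0.0354 for Ebi3, where 8.93% of all genes passed. The median difference of the 7 members was 0.10 for Ab_60mer over Ab and 0.13 for BRFc_60mer over BRFc, beside medians of -0.02 over all genes in both. The comparisons share groups, so their counts are not independent.

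**Figure D3:**
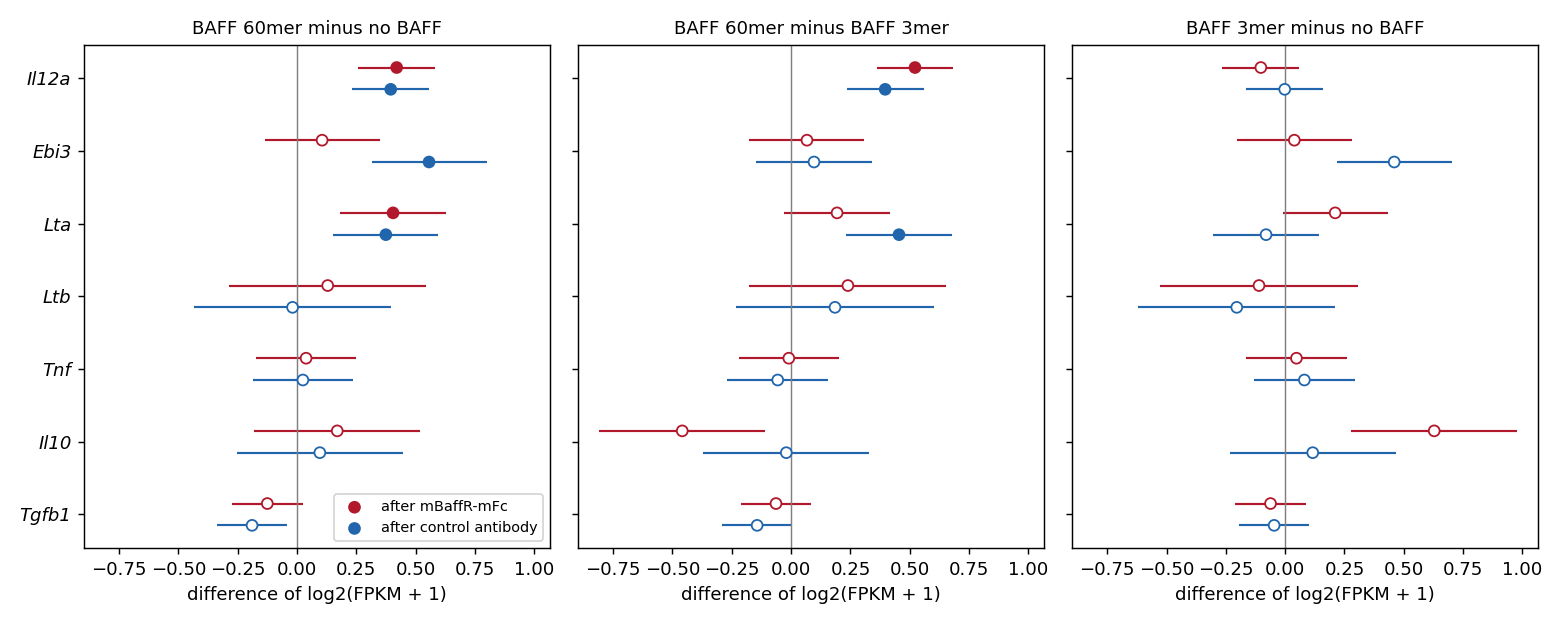
Difference of log2(FPKM + 1) with its 95% interval (x axes) for each of the 7 genes (y axis) in BAFF 60mer minus no BAFF, BAFF 60mer minus BAFF 3mer and BAFF 3mer minus no BAFF. Red is after mBaffR-mFc and blue after control antibody. Filled points passed the limma test, and these are Il12a in 4 comparisons, Lta in 3 and Ebi3 in 1.

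Ltb, whose product anchors lymphotoxin at the cell surface, was the more abundant lymphotoxin transcript per length, with a mean of 122.9 FPKM beside 5.73 FPKM for Lta. It lies at chr17:35194439-35196320 on the plus strand. Its level was 122.6, 112.5 and 171.2 FPKM in BRFc_60mer, 106.8, 115.4 and 157.2 FPKM in Ab_60mer, 98.5, 104.0 and 139.6 FPKM in BRFc_3mer and 107.9, 88.5 and 137.5 FPKM in Ab_3mer. Without BAFF it was 107.5, 109.0 and 153.7 FPKM in BRFc and 112.5, 124.8 and 143.5 FPKM in Ab. In all 6 groups the library deposited last was the highest, which held for 594 of 11646 tested genes (5.10%), beside 69 genes with the first library highest throughout and 14 with the second. The residual SD of Ltb, 0.28 on the log2 scale, was larger than that of 95.1% of tested genes. The group differences did not pass against this spread, with 0.13 ± 0.197 for BRFc_60mer over BRFc (limma adjusted p = 0.781) and -0.02 ± 0.197 for Ab_60mer over Ab (adjusted p = 0.962; interval -0.43 to 0.40). In this fit the intervals are wide enough to hold a difference as large as that of Lta. With the order of deposition as a block, chosen after seeing the data, the SE of Ltb was 0.071, which makes its intervals narrower. The differences of Ltb over no BAFF passed in no alternative. BRFc_60mer over BRFc_3mer, 0.24 in either fit, passed with the block (adjusted p = 0.0494, against 0.551 without the block).

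Tnf encodes TNF and lies at chr17:35199381-35202007 on the minus strand, 3.06 kb from Ltb and 1.16 kb from Lta. Its level ran from 3.98 to 5.64 FPKM over all libraries, on 94 to 179 fragments, and the 6 groups overlapped. Its mean was 4.52 ± 0.43 FPKM in BRFc_60mer, against 4.37 ± 0.153 FPKM in BRFc, and 4.92 ± 0.525 FPKM in Ab_60mer, against 4.81 ± 0.321 FPKM in Ab (SD, n = 3 each). The differences were 0.04 ± 0.1003 after mBaffR-mFc (limma adjusted p = 0.884; 95% interval -0.17 to 0.25) and 0.02 ± 0.1003 after control antibody (adjusted p = 0.902; interval -0.19 to 0.24). Of the 3 neighbours in this cluster, Lta alone passed. Whether its difference is larger than those of Tnf and Ltb was not tested.

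Il10, at chr1:131019845-131024974 on the plus strand, encodes IL-10 and was the lowest member per length, with 27 to 67 fragments per library. It had 2.56, 1.35 and 0.961 FPKM in BRFc_60mer and 2.06, 1.82 and 2.19 FPKM in Ab_60mer. With BAFF 3mer it had 2.51, 2.15 and 2.86 FPKM in BRFc_3mer and 2.16, 2.17 and 1.87 FPKM in Ab_3mer. Without BAFF it had 1.11, 1.32 and 1.35 FPKM in BRFc and 1.51, 1.81 and 2.19 FPKM in Ab. BRFc_60mer spread most, with replicate 1 inside the BRFc_3mer range and the other replicates below it.

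The largest difference of Il10 was BRFc_3mer minus BRFc, at 0.63 ± 0.165, a ratio of mean FPKM of 1.98. These libraries do not overlap, as was so in the same direction for 3.56% of tested genes, and the unadjusted p was 0.00147, but the difference did not pass over all genes (limma adjusted p = 0.999). BRFc_60mer minus BRFc_3mer was -0.46 ± 0.165 and did not pass (adjusted p = 0.132). It passed without BRFc_60mer replicate 1 (-0.70, adjusted p = 0.00749). With all libraries kept it also passed under quality weights for libraries (-0.45, adjusted p = 0.0410). The call thus depends on this 1 library and on the weights. BRFc_60mer minus BRFc was 0.17 ± 0.165 (adjusted p = 0.635), and Ab_60mer minus Ab was 0.10 ± 0.165 (adjusted p = 0.745; interval -0.25 to 0.45). BRFc minus Ab was -0.32 ± 0.165 (adjusted p = 0.848).

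Tgfb1, the gene of TGF-beta 1, was the most abundant member per length, with 172.9 to 229.0 FPKM, above 96.4% of tested genes. It lies at chr7:25687002-25705077 on the plus strand. It had 205.9, 184.2 and 194.4 FPKM in BRFc_60mer and 172.9, 195.0 and 207.5 FPKM in Ab_60mer. The values without BAFF were 201.3, 207.9 and 229.0 FPKM in BRFc and 209.9, 217.3 and 227.9 FPKM in Ab. The Ab_60mer libraries were all below the Ab libraries (19.2% of tested genes), at a difference of -0.19 ± 0.070 that did not pass (limma adjusted p = 0.0802; 95% interval -0.34 to -0.04), and passed without Ab_60mer replicate 3 (-0.25, adjusted p = 0.0353) or with the order of deposition as a block (adjusted p = 0.0422). BRFc_60mer minus BRFc was -0.13 ± 0.070 (adjusted p = 0.361). Means with BAFF 3mer lay between, at 203.5 ± 4.25 FPKM in BRFc_3mer and 211.8 ± 17.4 FPKM in Ab_3mer (SD, n = 3 each).

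**Figure D4:**
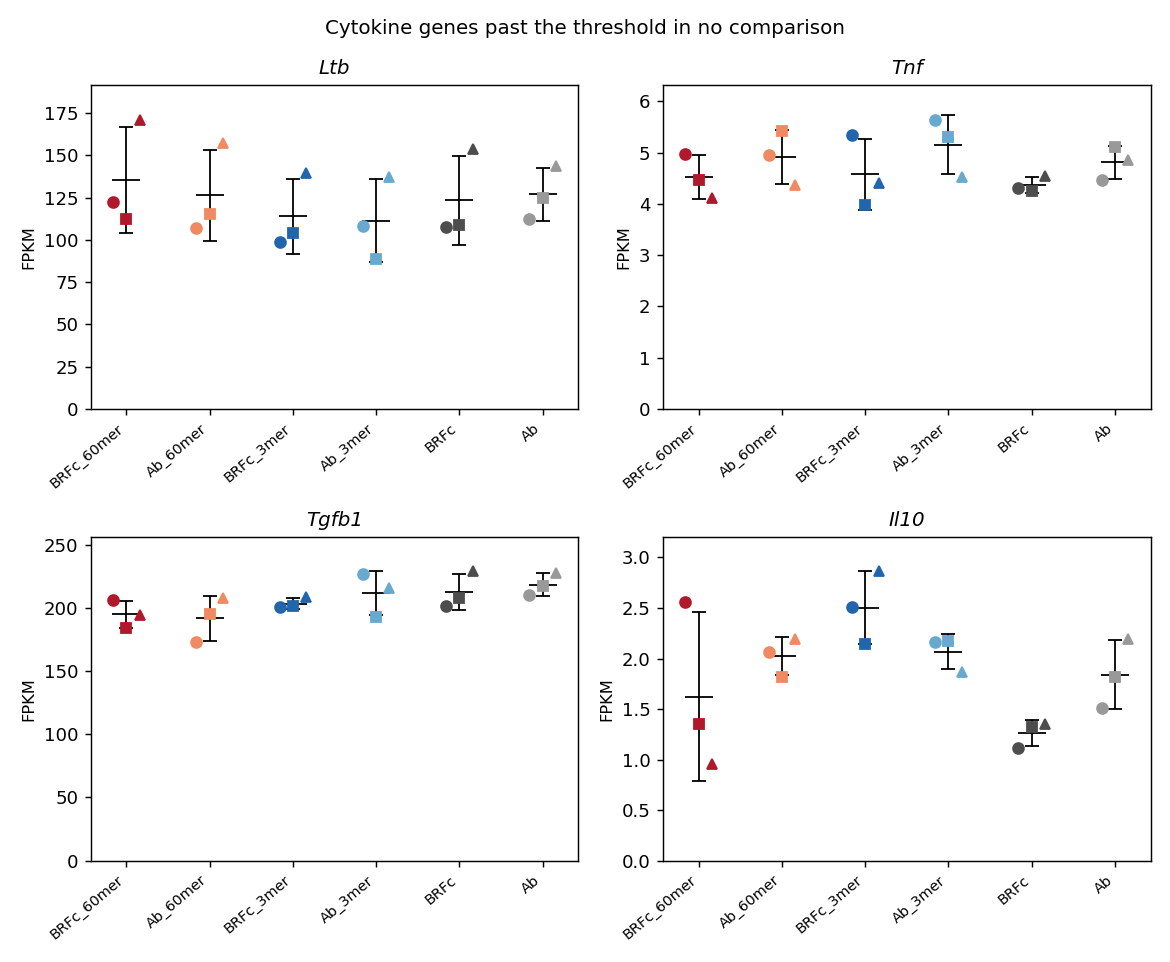
Levels in FPKM (y axes, each starting at 0) of Ltb, Tnf, Il10 and Tgfb1 in the 6 groups (x axes). Symbols are libraries, with circle, square and triangle for replicates 1, 2 and 3, and lines show the mean and SD of 3. The triangle is highest in each group for Ltb, and Tnf overlaps across all groups.

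BAFF 3mer and the pretreatment alone moved no member past the test. In Ab_3mer over Ab, BRFc_3mer over BRFc, BRFc over Ab and BRFc_3mer over Ab_3mer, 0 of 11646 genes passed in limma (0%), and voom on recovered fragments also called 0. At an unadjusted p under 0.05 limma had 632, 388, 688 and 452 genes. Between BRFc_60mer and Ab_60mer 3 genes passed (0.0258%), none of them a member. The interactions of pretreatment with BAFF 60mer over no BAFF and over BAFF 3mer gave 1 (0.00859%) and 2 genes (0.0172%), again with no member.

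Receptors, partners and regulators of these cytokines were read in the same fit. Their calls with BAFF 60mer lie along the same split in connective tissue transcripts, whose part in them was not tested. Of 14 listed partners, receptors and signalling genes of the IL-12 family 9 were tested, and 0 passed in limma or voom in any of the 4 comparisons of BAFF 60mer with no BAFF or BAFF 3mer. At an unadjusted p under 0.05 in limma there were 0 to 2 genes per comparison. Over all 11646 tested genes, 4.81% to 14% passed in these comparisons, and 2179 to 3452 genes had an unadjusted p under 0.05. Il12b, the p40 partner in IL-12, averaged 0.0529 FPKM, Il23a 0.111 FPKM and Il27 0.167 FPKM, all below the level tested. The IL-35 receptor chains were present, with Il12rb2 at 6.61 FPKM in Ab_60mer and 6.05 FPKM in Ab, and the gp130 gene Il6st at 45.1 FPKM and 43.7 FPKM in the same groups.

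On the lymphotoxin and TNF side, 9 of 10 listed genes were tested. Of these, 1 rose and 0 fell in Ab_60mer over Ab, and 2 fell and 0 rose in BRFc_60mer over BRFc. Over all tested genes 14% and 4.83% passed in these comparisons, in either direction, beside which these counts stand. Adam17, the protease that sheds TNF, rose in Ab_60mer over Ab (0.20 ± 0.041, limma adjusted p = 0.00525) and over Ab_3mer (0.16 ± 0.041, adjusted p = 0.0329). Its regulator Rhbdf2 (-0.25 ± 0.067, adjusted p = 0.0366) and Tnfrsf14, the receptor HVEM that binds LIGHT and lymphotoxin alpha (-0.47 ± 0.101, adjusted p = 0.0124), fell in BRFc_60mer over BRFc.

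Of 16 genes around IL-10, all tested, 4 fell and 1 rose in Ab_60mer over Ab (14% of all tested genes passed), and 2 fell and 0 rose in BRFc_60mer over BRFc (4.83%). The IL-10 receptor chain Il10ra fell in Ab_60mer over Ab by 0.26 (limma adjusted p = 0.0170) and in BRFc_60mer over BRFc by 0.28 (adjusted p = 0.0189), where Il10rb fell as well (-0.19 ± 0.050, adjusted p = 0.0344). Surface molecules of IL-10 making B cells went both ways in Ab_60mer over Ab: Cd1d1 (-0.42 ± 0.099, limma adjusted p = 0.0107) and Tigit (-0.47 ± 0.147, adjusted p = 0.0426) fell, and Havcr1, the TIM-1 gene, rose to 2.95 FPKM in Ab_60mer, against 1.5 FPKM in Ab (0.66 ± 0.133, adjusted p = 0.00451). Cd5 and Cd9, also listed, did not pass there, and none of these surface molecules passed in BRFc_60mer over BRFc. Bhlhe41, a transcription factor of B-1a cells, fell in Ab_60mer over Ab (-0.31 ± 0.074, adjusted p = 0.0129) and over Ab_3mer (-0.30 ± 0.074, adjusted p = 0.0257).

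Of 19 listed genes of the TGF-beta pathway 14 were tested, of which 2 fell and 1 rose in Ab_60mer over Ab (14% of all tested genes passed), and 2 fell and 0 rose in BRFc_60mer over BRFc (4.83%). Smad7, the inhibitory Smad that is itself a target of TGF-beta, fell in all 4 comparisons with BAFF 60mer, to 30.6 FPKM in BRFc_60mer, against 41.1 FPKM in BRFc (-0.41 ± 0.069, limma adjusted p = 0.00261), and to 28.8 FPKM in Ab_60mer, against 42.0 FPKM in Ab (-0.53 ± 0.069, adjusted p = 0.000205). Tgfb3, a sister ligand of Tgfb1, fell by 0.59 in BRFc_60mer over BRFc (adjusted p = 0.0209) and by 0.52 in Ab_60mer over Ab (adjusted p = 0.0218), at levels of 0.89 to 1.97 FPKM. Skil, the gene of the Smad corepressor SnoN, rose in Ab_60mer over Ab (0.21 ± 0.064, adjusted p = 0.0375).

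Of 12 RNA-binding regulators of cytokine mRNA 2 rose and 1 fell in Ab_60mer over Ab (14% of all tested genes passed, 5.04% as higher), and 2 rose and 0 fell in BRFc_60mer over BRFc (4.83%, with 1.46% higher). Zfp36l1, whose protein binds AU-rich elements, rose in all 4 comparisons with BAFF 60mer, by 0.27 in BRFc_60mer over BRFc (limma adjusted p = 0.000262) and by 0.20 in Ab_60mer over Ab (adjusted p = 0.00157). Its relative Zfp36l2 fell in Ab_60mer over Ab (-0.28 ± 0.083, adjusted p = 0.0320), and Rc3h1, the gene of roquin 1, rose there (0.23 ± 0.062, adjusted p = 0.0206). Zc3h12a, the gene of the endonuclease regnase 1, rose in BRFc_60mer over BRFc (0.27 ± 0.065, adjusted p = 0.0239). Of 24 other cytokines and chemokines 11 were tested, and Il16 alone passed, lower in BRFc_60mer over BRFc (-0.18 ± 0.050, adjusted p = 0.0468) and over BRFc_3mer (-0.20 ± 0.050, adjusted p = 0.0284). Over all tested genes 4.83% and 5.16% passed in those comparisons, in either direction. Il17a and Csf2 were listed at 0 in every library, and Il6 averaged 0.406 FPKM.

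Other cell types in the preparation make some of these cytokines, so their markers are given beside the members. Summed dendritic cell markers were 19.2 to 24.4 FPKM in the libraries with BAFF 60mer and 14.5 to 17.6 FPKM in the others. Of 8 listed, 4 were tested and Zbtb46 alone passed, with differences of 0.60 to 0.67 over the 4 comparisons. It holds most of the sum, at a mean of 15.9 FPKM in Ab_60mer and 9.99 FPKM in Ab. The other tested markers, Flt3, Itgax and Ccr9, had differences of -0.34 to 0.04 and did not pass, while Xcr1, Clec9a, Siglech and Cd209a averaged 0.0565 to 0.448 FPKM and were not tested. NK cell markers summed to 110.1 to 121.0 FPKM with BAFF 60mer and 115.3 to 137.1 FPKM otherwise. Of these, Klrd1 fell in 3 of the 4 comparisons, and Klre1 and Klra8 fell in 1 each. Cd14 was the only tested monocyte and macrophage marker that passed, lower in 3 of the 4 comparisons. Of 8 B cell markers Cd22, an inhibitory coreceptor, fell in all 4 comparisons (-0.16 to -0.24), and Blnk, an adaptor of the B cell receptor, fell in BRFc_60mer over BRFc_3mer (-0.16). Of 5 tested plasma cell markers Sdc1, the CD138 gene, fell in all 4 (-0.67 to -0.90) and the others did not pass. Beside these counts, 14% of all tested genes passed in Ab_60mer over Ab and 4.81% in Ab_60mer over Ab_3mer. The shares were 4.83% in BRFc_60mer over BRFc and 5.16% in BRFc_60mer over BRFc_3mer. The part of these cell types in the differences of Il12a, Lta and Ebi3 was not tested.

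The profile of each gene that passed the F test was set against those of all tested genes, as the root mean square distance of log2(FPKM + 1) over the 18 libraries after centring. The nearest to Il12a were Ift140 (0.077), Spib, a transcription factor gene of B cells (0.085), and Fcer2a, the CD23 gene (0.090), beside 0.226 for Il12a against its own mean. The nearest to Lta were Tk1 (0.122), Traf1 (0.126) and Cd40 (0.128), beside 0.226 for Lta itself. For Ebi3 they were Naaa (0.122), Dis3l2 (0.149) and Ppm1l (0.151), beside 0.211. For both Ebi3 and Lta the distance to the nearest profiles is thus a larger share of the gene's own spread than for Il12a. Both genes rest on fewer fragments than Il12a, and the part of counting error in this was not tested. Dis3l2 and Ppm1l did not pass the F test themselves (limma adjusted p = 0.128 and 0.155).

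Genes next to the members were read as well. Yju2, 2.08 kb beyond Ebi3, fell in Ab_60mer over Ab (-0.33 ± 0.095, limma adjusted p = 0.0283), opposite to Ebi3. Ccdc97, 6.03 kb beyond Tgfb1, fell in the same comparison (-0.16 ± 0.047, adjusted p = 0.0320). Nfkbil1, next to Lta, was at -0.42 ± 0.202 and did not pass (adjusted p = 0.179). Il24, the nearest tested gene on the lower side of Il10, was at 0.31 ± 0.154 (adjusted p = 0.192).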

How the data were processed

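The deposited values were FPKM, which per the labels' protocols a sequencing company determined for the authors; aligner, counting tool, strand use, genome build and scaling between libraries are not given in the sources used here. Of 35275 gene IDs, 34490 were matched to GENCODE M21 (GRCm38) for symbols and positions. The members and gene lists were chosen with earlier results of these data known. Values were taken as log2(FPKM + 1). The test was that of limma 3.58.1 (R 4.3.3) with a variance trend and 6 group means over 18 libraries, run on the 11646 genes averaging 1 FPKM or more; passing means an adjusted p below 0.05 (Benjamini-Hochberg over all of them). Library totals of 12.2 to 25.4 M fragments and fragments per gene were recovered from FPKM steps; 88.0% to 89.0% of values of single-transcript genes came out whole within 0.1. No count could be recovered for Ltb and Tgfb1. The voom fit named below held these genes all the same, so its values for them are not recovered whole counts. Poisson intervals cover counting error only. Genes were named as the 7 members, up to 4 passing genes a list and comparison, the 3 nearest profiles and neighbouring genes; some were left out for length. Alternatives were quality weights for libraries, a pseudocount of 0.1, no filter or a minimum of 5 FPKM, rescaling by median of ratios, only the groups compared, each library left out and a term for carriage of connective tissue transcripts. A voom fit to recovered fragments and the order of deposition as a block were chosen after seeing the data. The fit was tested on simulated data with independent noise in each library. Those data hold no effect of deposition order and no split in connective tissue transcripts, so they say nothing of how these act on the calls. Figures used matplotlib 3.10.9.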

Additional observations from a re-analysis of the deposited data

How the results depend on the processing

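No paired analysis was possible because the labels give no replicate numbers; the order of deposition as a block stands in only as an alternative chosen after seeing the data. The number of members that passed changed as follows. For Ab_60mer over Ab, 3 passed, 2 with no filter, with voom or with a minimum of 5 FPKM (which leaves Ebi3 untested), 4 with the order of deposition as a block, 0 with carriage of connective tissue transcripts as a term and 2 to 4 with a library left out. For Ab_60mer over Ab_3mer, 2 passed, and 1 with no filter, with only the groups compared or with carriage as a term, and 1 to 2 with a library left out. For BRFc_60mer over BRFc, 2 passed, 1 with no filter or with voom, 0 with only the groups compared or with carriage, and 1 to 2 with a library left out. For BRFc_60mer over BRFc_3mer, 1 passed, 2 with quality weights or the block, 0 with carriage, and 1 to 2 with a library left out. In the F test 3 passed, 4 with quality weights, 2 with no filter, voom or the minimum of 5 FPKM, 2 to 3 with a library left out, and 0 with carriage. Carriage is confounded with BAFF 60mer outside Ab_3mer, so its term rests on 3 libraries; the cause of the other changes was not tested.

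Il12a lost its call for BRFc_60mer over BRFc with only the groups compared (adjusted p = 0.0528), and in 3 comparisons with carriage. Ltb passed for BRFc_60mer over BRFc_3mer with the block (adjusted p = 0.0494), Tgfb1 for Ab_60mer over Ab with the block (0.0422), and Il10 for BRFc_60mer over BRFc_3mer with quality weights (0.0410).

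Values that changed sign were all of differences that had not passed. With rescaling, Ltb was at 0.0030 for Ab_60mer over Ab, Il12a at 0.014 for Ab_3mer over Ab and Tnf at 0.0044 for BRFc_60mer over BRFc_3mer. With quality weights the last was 0.036, and the Lta interaction with BAFF 60mer was -0.042. With carriage, Ltb was at 0.47, Tnf at -0.20 and Il10 at -0.048 for Ab_60mer over Ab, Il12a at 0.030 for Ab_3mer over Ab, and Tnf at -0.19 for BRFc_60mer over BRFc. Leaving out a library gave, for Ab_60mer over Ab, -0.18 to 0.092 for Ltb and -0.036 to 0.092 for Tnf. For Ab_60mer over Ab_3mer it gave -0.13 to 0.011 for Tnf and -0.068 to 0.030 for Il10. For BRFc_60mer over BRFc it gave -0.050 to 0.30 for Ltb, -0.020 to 0.091 for Tnf and -0.074 to 0.36 for Il10. Tnf ran from -0.087 to 0.087 for BRFc_60mer over BRFc_3mer, Il12a from -0.041 to 0.048 for Ab_3mer over Ab and from -0.097 to 0.019 for BRFc_60mer over Ab_60mer, and Ebi3 from -0.066 to 0.17 for BRFc_3mer over BRFc. The interaction with BAFF 60mer ran from -0.11 to 0.11 for Lta and from -0.046 to 0.11 for Il12a.

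Over all genes, the number that passed for Ab_60mer over Ab, Ab_60mer over Ab_3mer, BRFc_60mer over BRFc and BRFc_60mer over BRFc_3mer was 1628, 560, 563 and 601. It was 1053, 252, 139 and 287 with only the groups compared, and 16, 246, 10 and 15 with carriage. Quality weights gave 1974, 708, 1386 and 1318 in the same order, and the block gave 2428, 1099, 1105 and 943. At most 67 Il10 fragments and at most 101 Ebi3 fragments per library limit what differences of these genes could be detected.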
